A study of Mus musculus with 6 samples.

Results

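Serum response factor (Srf) and 9 genes of the contractile actin cytoskeleton were followed in an osteoblast cell line given dexamethasone, with or without extracellular vesicles. The 10 genes (Acta2, Tagln, Cnn1, Cnn2, Myl9, Tpm1, Tpm2, Actn1, Vcl and Srf) were taken by name from a table of 21686 genes, and all 10 were found there. The cells were MC3T3-E1 Subclone 14, an osteoblast precursor line from mouse calvaria that is 1 clone. RNA was sequenced in 6 libraries, 2 per group. The control group received 100 µL PBS. The dexamethasone group received the synthetic glucocorticoid at 10 µM, and the third group received 10 µM dexamethasone together with 100 µg of vesicles from endothelial progenitor cells (dexamethasone + EPC-EVs). All groups were cultured for 72 hours. No group received the vesicles without dexamethasone.

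SRF is a transcription factor that binds a short AT-rich DNA element, the CArG box. Its cofactors of the MRTF family are held in the cytoplasm by monomeric actin, and when RhoA signalling drives actin into filaments they enter the nucleus and switch on genes for actin, actin-binding proteins and SRF itself. A second set of cofactors, the ternary complex factors, directs SRF to immediate early genes. Smooth muscle α-actin (Acta2), transgelin (Tagln) and calponin (Cnn1) are known as markers of smooth muscle cells and myofibroblasts, and are also found in mesenchymal progenitors of bone.

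The promoters of these genes show where that element lies. In the RefSeq promoters (GRCm38.p6), 9 of the 10 genes had an entry, and Tagln was not searched. In the 250 bases before the start, an exact CArG box, searched on both strands, was present in 4 of the 9 genes (Srf, Myl9, Cnn2 and Vcl), against 1.62% of the 27025 genes with an entry (1.47% of all 32851 windows). Allowing 1 mismatch, 6 of 9 genes had a match, against 21.1% of genes (18.6% of windows). The Srf window (chr17:46556163-46556412, minus strand) is shown because it holds 2 exact boxes, from 82 to 73 and from 62 to 53 bases before the start. The Acta2 window (chr19:34255374-34255623, minus strand) is shown because Acta2 had the highest level of the set by the deposited FPKM. This window held no exact box but 2 matches with 1 mismatch, from 84 to 75 and from 34 to 25 bases before the start. Capitals mark the exact boxes in Srf and the matches with 1 mismatch in Acta2.
Srf: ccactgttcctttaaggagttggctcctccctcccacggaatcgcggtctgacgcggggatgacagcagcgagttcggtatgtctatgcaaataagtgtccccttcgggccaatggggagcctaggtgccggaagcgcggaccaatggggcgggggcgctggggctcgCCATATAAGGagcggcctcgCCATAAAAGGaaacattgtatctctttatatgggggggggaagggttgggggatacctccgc
Acta2: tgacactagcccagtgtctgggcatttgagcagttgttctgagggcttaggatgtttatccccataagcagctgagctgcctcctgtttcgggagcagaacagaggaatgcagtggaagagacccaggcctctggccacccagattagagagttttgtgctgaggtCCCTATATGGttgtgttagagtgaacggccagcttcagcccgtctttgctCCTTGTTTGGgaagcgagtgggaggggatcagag
The other 3 genes with an exact box are shown by the box in capitals with its flanking bases. In Myl9 it lay from 161 to 152 bases before the start (window chr2:156775214-156775463, plus strand), in Cnn2 from 56 to 47 (window chr10:79988350-79988599, plus strand) and in Vcl from 227 to 218 (window chr14:20929148-20929397, plus strand).
Myl9: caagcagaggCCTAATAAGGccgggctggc
Cnn2: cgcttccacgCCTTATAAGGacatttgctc
Vcl: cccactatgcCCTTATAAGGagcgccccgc
The remaining genes searched had no exact box in this window, and the windows of Cnn1, Tpm2 and Actn1 had no match with 1 mismatch either. A match is a description of the letters and says nothing of binding in these cells.

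The libraries held 6126888 and 5146760 counts in control, 6583735 and 6575094 counts in dexamethasone, and 12864009 and 13182014 counts in dexamethasone + EPC-EVs. Levels are given as CPM, counts scaled to a common library size, after TMM normalization. Levels of different genes are compared as FPKM, which divides by the gene length that the authors used. Where genes are set side by side in counts or CPM, as in sums over genes, no length enters. With 0 counts in a library, a level of up to 3 counts remains possible (0.228 CPM in the deepest library and 0.583 CPM in the shallowest), by counting error alone. Both dexamethasone + EPC-EVs libraries stood apart from the other 4 in composition. Mitochondrially encoded genes took 0.465% and 0.727% of their counts, against 5.55% to 8.62% elsewhere, and Gm26917 took 5.88% and 6.69%, against 0.252% to 1.14%. No label tells a batch apart from the treatment. The part of this shift in the results below was not tested beyond the values given.

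In the osteoblast markers, the collagen and matrix genes were abundant, with Col1a1 at 2382 ± 224 CPM (SD, n = 2) and Spp1 at 10860 ± 738 CPM (SD, n = 2) in control. The differentiation markers Alpl and Bglap did not exceed a mean of 3.57 CPM in any group. The smooth muscle myosin gene Myh11 did not exceed a mean of 0.529 CPM in any group. The cells therefore had abundant RNA of part of the contractile set without this defining marker of differentiated smooth muscle.

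The actin Acta2 (ENSMUSG00000035783.8, GRCm38 chr19:34241090-34255590, minus strand) is the actin of smooth muscle stress fibres. It stood at 381 and 371 CPM in control, 339 and 330 CPM in dexamethasone, and 2425 and 2392 CPM in dexamethasone + EPC-EVs. Both dexamethasone + EPC-EVs libraries were far above the other 4, and the dexamethasone libraries lay slightly below control. By FPKM it ranked 112 and 109 among all genes in the control libraries, 123 and 128 under dexamethasone, and 9 and 10 in dexamethasone + EPC-EVs. Acta2 has near-identical paralogs, of which Acta1 did not exceed 4 counts in any library and Actg2 reached 73.3 CPM at most, and how reads shared between them were treated was not tested.

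Transgelin (Tagln, ENSMUSG00000032085.5, chr9:45929619-45936058, minus strand) is an actin-bundling protein of the same fibres. It stood at 28.4 and 26.4 CPM in control, 26.2 and 16.7 CPM in dexamethasone, and 162 and 143 CPM in dexamethasone + EPC-EVs. The 2 groups without vesicles lay close together and the third stood well above them. Tagln overlaps Pcsk7 on the other strand, and whether the counting used strand is not given in the sources used here, although the alignment had a strand setting. Counts from the stretch that both genes cover are therefore less certain.

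The myosin regulatory light chain Myl9 (ENSMUSG00000067818.6, chr2:156775420-156781658, plus strand), whose phosphorylation activates the myosin motor, stood at 69.2 and 47.7 CPM in control, 50.1 and 30.8 CPM in dexamethasone, and 197 and 209 CPM in dexamethasone + EPC-EVs. Control and dexamethasone overlapped, and the dexamethasone + EPC-EVs libraries were higher than both.

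The calponins bind actin and restrain myosin. Cnn2 (ENSMUSG00000004665.10, chr10:79988584-79996062, plus strand), the form found in many cell types, stood at 130 and 80.1 CPM in control, 161 and 125 CPM in dexamethasone, and 424 and 417 CPM in dexamethasone + EPC-EVs. Its libraries overlapped between control and dexamethasone and were highest in dexamethasone + EPC-EVs. Cnn1 (ENSMUSG00000001349.5, chr9:22099216-22109630, plus strand), the smooth muscle form, had 0 and 0 counts in control, 0 and 1 count in dexamethasone, and 12 and 1 counts in dexamethasone + EPC-EVs. Only 1 library held more than 1 count of Cnn1, it passed the filter on low counts in no comparison, and it was not tested.

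The tropomyosins wind along actin filaments and set which proteins can bind them. Tpm1 (ENSMUSG00000032366.15, chr9:67022590-67049406, minus strand) stood at 813 and 894 CPM in control, 611 and 682 CPM in dexamethasone, and 764 and 726 CPM in dexamethasone + EPC-EVs. Tpm2 (ENSMUSG00000028464.16, chr4:43514711-43523765, minus strand) stood at 221 and 165 CPM in control, 216 and 206 CPM in dexamethasone, and 181 and 153 CPM in dexamethasone + EPC-EVs. These 2 genes thus stayed within a narrow range, with Tpm1 lowest in dexamethasone and Tpm2 lowest in 1 library of dexamethasone + EPC-EVs.

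Actinin and vinculin tie actin filaments together and to the membrane at focal adhesions. Actn1 (ENSMUSG00000015143.15, chr12:80167547-80260371, minus strand), which crosslinks filaments, stood at 324 and 235 CPM in control, 258 and 243 CPM in dexamethasone, and 429 and 508 CPM in dexamethasone + EPC-EVs. Vcl (ENSMUSG00000021823.10, chr14:20929398-21033676, plus strand), which links integrin adhesions to actin, stood at 416 and 411 CPM in control, 379 and 388 CPM in dexamethasone, and 554 and 510 CPM in dexamethasone + EPC-EVs. Both genes were highest in the 2 dexamethasone + EPC-EVs libraries, by less than Acta2 was. Actn1 overlaps the annotated transcripts Gm47765, Gm47766 and Gm47767, and Vcl overlaps Ap3m1 on the other strand.

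The factor itself, Srf (ENSMUSG00000015605.5, chr17:46548329-46556175, minus strand), stood at 50.3 and 42.9 CPM in control, 42.1 and 43.2 CPM in dexamethasone, and 96.8 and 118 CPM in dexamethasone + EPC-EVs. Control and dexamethasone overlapped and the dexamethasone + EPC-EVs libraries stood above both. Srf overlaps Gm26904 on the other strand and Mir6976 on the same strand.

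**Figure D1:**
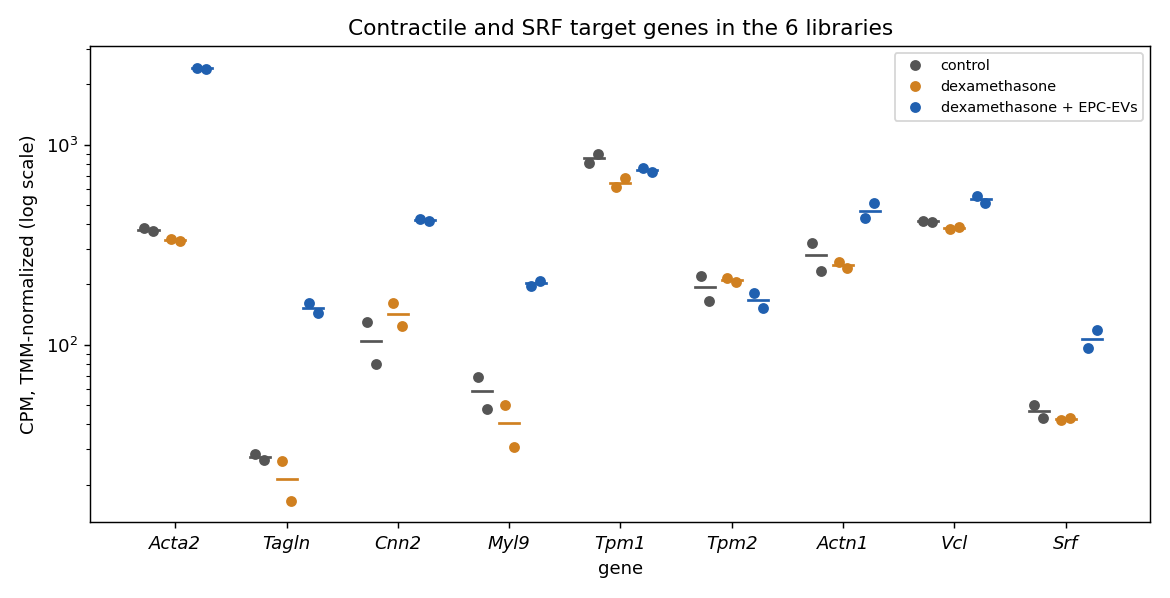
TMM-normalized CPM on a log axis of the 9 tested genes in each of the 6 libraries, with points for libraries, bars for group means and colours for groups. Acta2 lies at 2425 and 2392 CPM in dexamethasone + EPC-EVs against 330 to 381 CPM in the other 4 libraries, while Tpm1 and Tpm2 stay close in all groups. Cnn1, with at most 12 counts, is left out.

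By the deposited FPKM, Acta2 was the highest of the 10 genes in each group. It had 207.5 ± 7.45 FPKM in control, 193.9 ± 3.74 FPKM in dexamethasone and 1335 ± 18.9 FPKM in dexamethasone + EPC-EVs (SD, n = 2 each). Tpm1 came next in control, at 129 ± 6.56 FPKM (SD, n = 2). Below it, in the order Tpm2, Actn1, Vcl, Myl9 and Cnn2, the libraries of each neighbouring pair overlapped, so neighbours did not differ beyond their spread. In dexamethasone, the neighbours Vcl and Actn1, and Tagln and Srf, overlapped. In dexamethasone + EPC-EVs, Myl9 (173 ± 6.37 FPKM) and Cnn2 (169 ± 2.87 FPKM) lay next to Acta2 and above Tpm1 (113 ± 4.59 FPKM; SD, n = 2 each). Myl9 had been in the sixth place in control, and Cnn2 in the seventh. The overlapping neighbours there were Myl9 and Cnn2, Actn1 and Tagln, and Vcl and Tpm2. Srf was ninth and Cnn1 last in each group. The gene length behind these FPKM was 6485 bases for Tpm1, whose longest transcript has 2890. For Acta2 it was 1781 bases, and the longest transcript has 2035. The order, also that of Acta2 and Tpm1, thus rests on the lengths used, and other lengths were not tested.

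Summed, the 10 genes took 0.242% and 0.221% of all counts in control, 0.215% and 0.213% of those in dexamethasone, and 0.518% and 0.509% of those in dexamethasone + EPC-EVs. Acta2 made up 15.7% and 16.3% of that sum in control, 16.3% and 16.0% of it in dexamethasone, and 46.3% and 46.2% of it in dexamethasone + EPC-EVs. The share of Acta2 was therefore near the same in the first 2 groups and higher in the third.

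The question of the first comparison was whether dexamethasone changed these genes. No gene of the set was called between dexamethasone and control by the quasi-likelihood test of edgeR, adjusted over 12879 genes by the Benjamini-Hochberg method, where a call was an adjusted p under 0.05. In that comparison 0.0544% of all genes tested (7 genes) were called, while 1409 had an unadjusted p under 0.05. Of the 9 genes tested, 7 had a negative log2 fold change and 2 a positive one, with a median of -0.16 against 0.007 over all genes. Tpm1 was the only 1 of the 9 with an unadjusted p under 0.05, with a log2 fold change of -0.41 (SE 0.142, adjusted p = 0.367). Myl9 had -0.54 (SE 0.288, adjusted p = 0.521) and Cnn2 had 0.44 (SE 0.235, adjusted p = 0.521). Acta2 had -0.17 (SE 0.141, adjusted p = 0.688) and Srf -0.13 (SE 0.232, adjusted p = 0.876). DESeq2 and limma called none of the 9 either, although DESeq2 gave no adjusted p for Tagln. Without control replicate 1, where the lone control library is assumed to vary like the dexamethasone group, Cnn2 was called higher (0.84, adjusted p = 0.000811 by edgeR) and Tpm1 lower (-0.47, adjusted p = 0.0027 by edgeR), and 2200 of all genes were called.

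Glucocorticoid receptor targets were read beside these values. Of Tsc22d3, Fkbp5 and Per1, none was called between dexamethasone and control by edgeR, with log2 fold changes of -0.09, 0.28 and 0.001, beside 0.0544% of all genes called. In dexamethasone + EPC-EVs against dexamethasone, Tsc22d3 (2.40, adjusted p = 0.00275 by edgeR) and Fkbp5 (0.73, adjusted p = 0.0225) were called higher and Per1 was not (0.08, adjusted p = 0.752), beside 20.9% of all genes called higher. Both groups had received the same dose.

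The second comparison asked what the vesicles added to dexamethasone. Between dexamethasone + EPC-EVs and dexamethasone, 7 of the 9 genes tested were higher and none lower, where 20.9% of the 13556 genes tested were called higher and 18.9% lower. Their median log2 fold change was 1.31, against 0.012 over all genes tested. Acta2 was 7.11-fold higher, a log2 fold change of 2.83 (SE 0.114, adjusted p = 7.06e-08 by edgeR). Tagln was 7.03-fold higher (2.81, SE 0.211, adjusted p = 3.48e-06) and Myl9 4.97-fold higher (2.31, SE 0.204, adjusted p = 9.07e-06). Cnn2 was 2.91-fold higher, with a log2 fold change of 1.54 (SE 0.145, adjusted p = 1.37e-05). These 4 genes also passed the threshold of the study's methods, an unadjusted p under 0.05 with a log2 fold change beyond 1.5. Each of the 4 was called under all 13 alternative settings, with log2 fold changes from 2.75 to 2.86 for Acta2, 2.53 to 3.19 for Tagln, 1.69 to 2.71 for Myl9 and 1.18 to 1.75 for Cnn2. In RNA from whole cultures, more cells with a high level and more RNA per cell cannot be told apart.

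The rises in Actn1, Vcl and Srf were smaller. Actn1 had a log2 fold change of 0.89 (SE 0.131, adjusted p = 0.000303 by edgeR) and was called under all 13 alternatives. Vcl had 0.45 (SE 0.117, adjusted p = 0.00927 by edgeR), and lost its call without dexamethasone replicate 1 (0.45, adjusted p = 0.0963) or without dexamethasone replicate 2 (0.48, adjusted p = 0.0857).

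Srf was 2.49-fold higher, with a log2 fold change of 1.31 (SE 0.173, adjusted p = 0.000138 by edgeR). This value changed when GC content and transcript length were corrected for together. The longest transcript of Srf is 64.4% GC, against 48.6% to 56.6% for the other 9 genes. The 140 other tested genes within 2 percentage points of the GC content of Srf had a median log2 fold change of 1.39, near that of Srf. For Acta2 and Myl9 the same medians were 0.083 (2790 genes) and 0.595 (2016 genes), below the values of these genes. When each library was corrected for a trend on GC content and on the length of the transcripts, Srf had a log2 fold change of 0.14 (adjusted p = 0.578 by edgeR) and lost its call. Acta2, Tagln, Myl9, Cnn2, Actn1 and Vcl kept theirs, at 2.75, 2.53, 1.69, 1.18, 0.58 and 0.43.

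Neither Tpm1 nor Tpm2 was called. Tpm1 had a log2 fold change of 0.19 (SE 0.116, adjusted p = 0.229 by edgeR). Tpm2 had -0.36 (SE 0.136, adjusted p = 0.0548 by edgeR), just outside the threshold, and was called lower under 5 of 13 alternatives, with -0.86 (adjusted p = 0.000429) once the GC and length trend was removed. The contractile set thus did not move as a block.

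**Figure D2:**
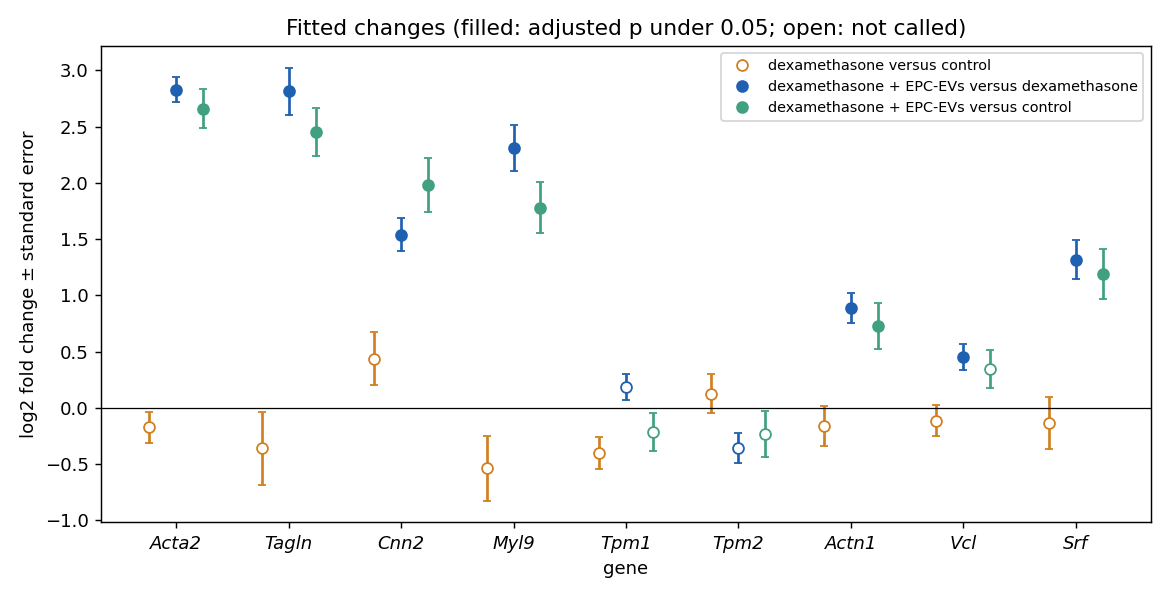
Log2 fold change with its standard error from edgeR for the 9 tested genes in the 3 comparisons, with filled points for an adjusted p under 0.05 and open points for genes not called. Acta2, Tagln, Myl9 and Cnn2 lie from 1.54 to 2.83 against dexamethasone and from 1.78 to 2.66 against control, while no gene is called between dexamethasone and control.

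Against control, which shares the dexamethasone + EPC-EVs libraries with the second comparison, 6 of the 9 genes were called higher and none lower, where 19.1% of 13511 genes were called higher and 17.2% lower. Their median log2 fold change was 1.19, against 0.021 over all genes tested. Acta2 had a log2 fold change of 2.66 (SE 0.176, adjusted p = 0.000111 by edgeR), Tagln 2.45 (SE 0.212, adjusted p = 0.000257) and Cnn2 1.98 (SE 0.243, adjusted p = 0.000793). Myl9 had 1.78 (SE 0.227, adjusted p = 0.000927 by edgeR). Acta2, Tagln, Cnn2 and Myl9 were again called under all 13 alternatives, with the lowest values of 2.50, 1.95, 1.35 and 0.81 after the GC and length trend was removed. For these 4 genes the level in dexamethasone + EPC-EVs was therefore above that of cells that had not received dexamethasone.

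Actn1 had 0.73 against control (SE 0.208, adjusted p = 0.0257 by edgeR), and lost its call without control replicate 2 (0.54, adjusted p = 0.0624), without dexamethasone + EPC-EVs replicate 2 (0.61, adjusted p = 0.128) and with the GC and length trend removed (0.19, adjusted p = 0.447). Srf had 1.19 (SE 0.221, adjusted p = 0.00418 by edgeR), and -0.58 (adjusted p = 0.0963) with that trend removed, so its direction against control depended on this step. Genes of like GC content had a median of 1.66 (142 genes). Vcl had 0.34 (adjusted p = 0.136 by edgeR), Tpm1 -0.22 (adjusted p = 0.344) and Tpm2 -0.23 (adjusted p = 0.412), none of them called. With the trend removed, Tpm2 was called lower (-1.09, adjusted p = 0.0018 by edgeR), and without control replicate 1 it had 0.03.

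Each contractile protein belongs to a family of genes, and within a library the share of each family member does not depend on the scaling between libraries. The shares can still change with the trend on GC content and length, and were not corrected for it. The families were set out after the values of the 10 genes had been seen, so the shares are descriptions. Of the FPKM of 5 actin genes, Acta2 made up 20.5% ± 3.91 under control conditions, 17.0% ± 0.523 in dexamethasone and 40.5% ± 1.80 in dexamethasone + EPC-EVs (SD, n = 2 each). The non-muscle actin Actb went from 64.0% ± 1.03 in dexamethasone to 44.0% ± 2.16 (SD, n = 2 each), close to Acta2. Acta2 and Actb thus took near-equal shares of the actin RNA in dexamethasone + EPC-EVs.

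A similar change of proportion was seen in the transgelins and the light chains. Tagln made up 19.2% ± 3.15 of the FPKM of Tagln and Tagln2 under control conditions, 12.95% ± 3.44 in dexamethasone and 60.4% ± 5.37 in dexamethasone + EPC-EVs (SD, n = 2 each). Myl9 made up 18.6% ± 3.08 of the regulatory light chains under control conditions, 15.5% ± 5.21 in dexamethasone and 48.7% ± 0.912 in dexamethasone + EPC-EVs, while its non-muscle paralog Myl12b made up 35.8% ± 7.21, 36.6% ± 4.79 and 5.89% ± 0.325 (SD, n = 2 each). Myl12b itself was called lower against dexamethasone (log2 fold change -1.98, SE 0.166, adjusted p = 6.69e-06 by edgeR). The third paralog, Myl12a, made up 48.0% ± 0.417 in dexamethasone and 45.4% ± 0.594 with the vesicles added (SD, n = 2 each), and was itself called higher (log2 fold change 0.58, adjusted p = 0.00219 by edgeR).

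In the calponins, Cnn2 made up 21.8% ± 7.98 under control conditions, 30.1% ± 5.94 in dexamethasone and 50.9% ± 4.80 in dexamethasone + EPC-EVs, with almost all of the rest from Cnn3 (SD, n = 2 each). In the actinins, Actn1 made up 41.4% ± 4.21 under control conditions, 33.7% ± 0.488 in dexamethasone and 50.8% ± 5.74 with the vesicles added, the rest being Actn4 (SD, n = 2 each). In the tropomyosins, Tpm4 had the largest share by FPKM, 52.3% ± 1.90 in dexamethasone and 51.0% ± 2.92 in dexamethasone + EPC-EVs (SD, n = 2 each). These shares rest on a length of 6485 bases for Tpm1, whose longest transcript has 2890. Without division by length Tpm1 exceeded Tpm4, at 646.4 against 553.4 CPM in dexamethasone and 745.0 against 471.5 CPM in dexamethasone + EPC-EVs. By FPKM, Tpm1 made up 20.7% ± 1.56 and 27.4% ± 0.537 in these groups, and Tpm2 15.1% ± 0.530 and 13.7% ± 1.39 (SD, n = 2 each). Tpm3 made up 11.9% ± 0.884 and 7.93% ± 0.996 (SD, n = 2 each), and was itself called lower against dexamethasone (log2 fold change -0.80, adjusted p = 0.000888 by edgeR).

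**Figure D3:**
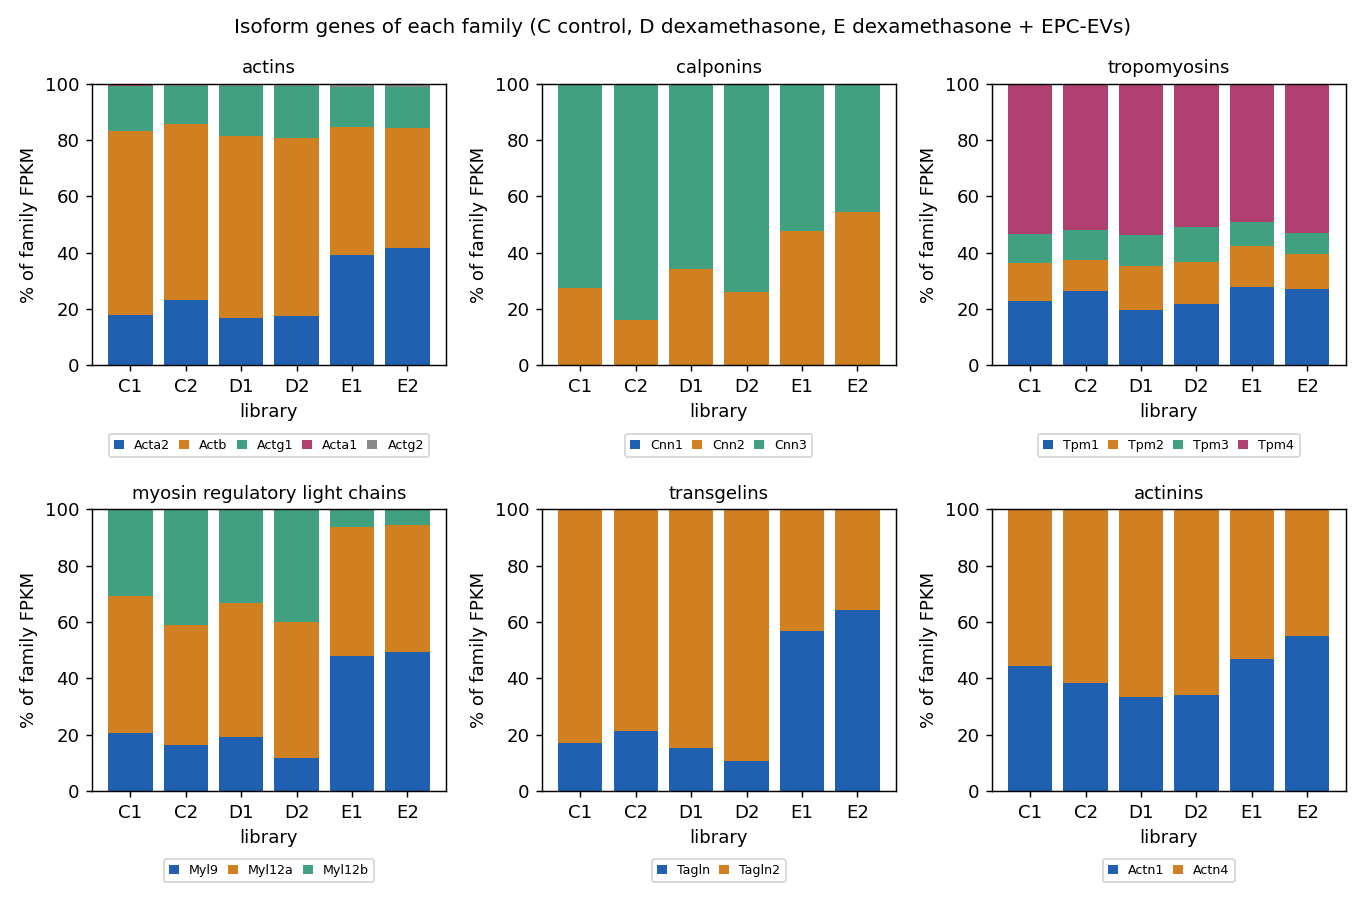
Share of each gene in the summed FPKM of its family, in percent, for the 2 control (C), 2 dexamethasone (D) and 2 dexamethasone + EPC-EVs (E) libraries. In the E libraries Acta2, Cnn2, Myl9, Tagln and Actn1 take larger shares than in the D libraries, and Myl12b averages 5.89%. Tpm4 stays the largest FPKM share of the tropomyosins, although Tpm1 has more counts.

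A wider list of 40 other SRF and MRTF targets and contractile genes, of which 37 were tested, held called genes of both directions. Between dexamethasone and control none was called, beside 0.0544% of all genes. Without control replicate 1, where 2200 genes were called in all, 13 of the list were higher and 6 lower, and without control replicate 2, where 113 were called in all, 3 were lower. Between dexamethasone + EPC-EVs and dexamethasone, 15 of the 37 were called higher and 8 lower, beside 20.9% and 18.9% of all genes tested, so that the share lower was near that of all genes. The median log2 fold change was 0.28, against 0.012 over all genes. Without dexamethasone replicate 1 or replicate 2, 4 were lower, while the calls over all genes went from 5397 to 3782 and 3250. The largest rises were in Actg2 (2.21), the smooth muscle γ-actin, Flna (1.95), which crosslinks actin, and Cyr61 (1.93), a secreted matricellular protein. Cyr61 was not called against control (0.34, adjusted p = 0.407 by edgeR) and had -1.60 (adjusted p = 0.101) between dexamethasone and control. The cytoskeletal actins Actb (1.03, adjusted p = 4.38e-05 by edgeR) and Actg1 (1.22, adjusted p = 1.11e-05) were also higher. The largest falls among genes whose mean reached 10 CPM were in Myl12b (-1.98), Filip1l (-1.01), a filamin-interacting protein, and Lmod1 (-0.97), a smooth muscle leiomodin that nucleates actin. The intermediate filament gene Des, below that level, was also called lower (-1.97). It was not called against control (-0.90, adjusted p = 0.428 by edgeR), with means of 4.03 CPM in control and 8.47 CPM in dexamethasone. Against dexamethasone, rises and falls therefore both occurred among genes known as smooth muscle genes, Actg2 on one side and Lmod1 and Des on the other. Smtn (-0.19) and Synpo2 (0.22) were not called.

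Against control, 10 of the 37 were higher and 6 lower, beside 19.1% and 17.2% of all genes, again with the share lower near that of all genes. The median was 0.19, and 11 were lower with the GC and length trend removed. Actg2 (2.65), Pdlim7 (2.21) and Flna (2.18) rose the most, and Myl12b (-2.19), Filip1l (-2.14) and Lmod1 (-1.48) fell the most. Of 35 genes of this list with a RefSeq promoter entry, 7 (20%) had an exact CArG box in the 250 bases before a start, as did 0 of 17 genes of SRF cofactors and the RhoA pathway.

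Among 19 tested genes of SRF cofactors and the RhoA pathway, 7 were called higher and 5 lower against dexamethasone, beside 20.9% and 18.9% of all genes, with a median of 0.21. Without dexamethasone replicate 1, 4 were higher, and without dexamethasone replicate 2, 3 were lower, in the same fits with 3782 and 3250 calls over all genes. Between dexamethasone and control none of the 19 was called, beside 0.0544% of all genes, and 6 were higher and 3 lower without control replicate 1, where 2200 genes were called in all. Rhob (1.18) and Rhoc (0.94), which encode small GTPases, and Cap1 (1.05), an actin-monomer recycling protein, rose the most. The kinases Rock2 (-1.59, adjusted p = 5.03e-06 by edgeR) and Rock1 (-1.59, adjusted p = 0.000125), which phosphorylate targets that raise light chain phosphorylation, fell the most, followed by the cofactor Mrtfb, listed as Mkl2 (-1.06, adjusted p = 0.000111). The cofactor Mrtfa, listed as Mkl1, had 0.29 (adjusted p = 0.119 by edgeR). Of the ternary complex factors, Elk1 was called lower (-0.64, adjusted p = 0.0306 by edgeR), while Elk3 had 0.21 (adjusted p = 0.296) and Elk4 0.27 (adjusted p = 0.139). Myocardin (Myocd), the smooth muscle and heart cofactor, had 0 counts in 5 libraries and 1 count in 1 dexamethasone + EPC-EVs library.

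Against control the same 19 genes gave 6 higher and 5 lower, beside 19.1% and 17.2% of all genes, led by Rhoc (1.66), Rhob (1.36) and Cap1 (1.04) and by Rock1 (-2.06), Rock2 (-2.00) and Mkl2 (-1.15). With the trend on GC content and length removed, the number higher was 3 against dexamethasone and 1 against control, and the number lower was 5 and 4. Over all genes, that fit called 4333 against dexamethasone and 3508 against control, where the fit without the correction called 5397 and 4916.

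The immediate early targets of SRF were divided. Of 10 genes tested, 5 were called higher and 1 lower against dexamethasone, beside 20.9% and 18.9% of all genes, and their median was 1.59 (log2 fold change), which lies in a gap between 0.97 and 2.21 and near no gene of the list. Fos (4.25, adjusted p = 1.38e-07 by edgeR), Fosb (3.67) and Ier2 (3.47) rose the most, and Mcl1, which protects cells from apoptosis, fell (-1.54). The remaining 4, Egr1 (-0.05), Egr2 (0.51), Egr3 (0.97) and Nr4a1 (0.97), were not called. Against control the counts were again 5 and 1, beside 19.1% and 17.2% of all genes, with a median of 1.51. Between dexamethasone and control none of the 10 was called, beside 0.0544% of all genes. Unlike the wider list and the cofactor list, these genes were not counted under the alternative settings.

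**Figure D4:**
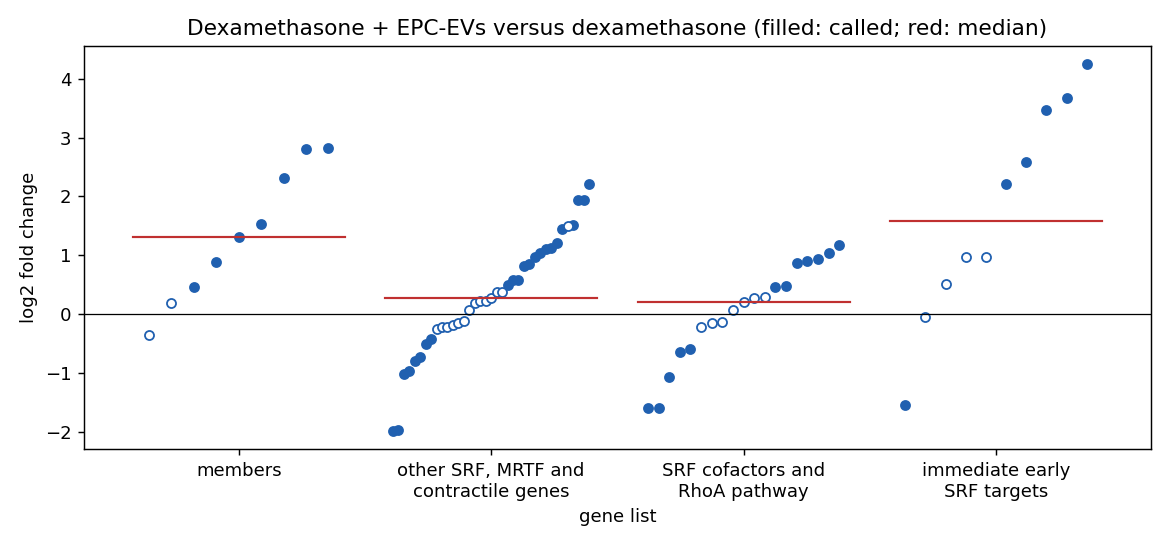
Log2 fold changes between dexamethasone + EPC-EVs and dexamethasone for the 9 tested contractile and SRF target genes (members) and for 3 related lists, with genes sorted by value, filled points for called genes and red lines for medians. The medians are 1.31, 0.28, 0.21 and 1.59, and each list holds at least 1 gene below 0.

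Genes of other cell types were checked beside these values. The 6 smooth muscle markers in the table that are not in the set of 10 summed to 309 and 292 CPM in control, 349 and 343 CPM in dexamethasone, and 363 and 326 CPM in dexamethasone + EPC-EVs. All 6 of these markers are also in the wider list above, so the sum adds no further genes. Their sum was lowest in control and overlapped between dexamethasone and dexamethasone + EPC-EVs. Most of it was Smtn (231 CPM in dexamethasone and 206 CPM in dexamethasone + EPC-EVs on average), and it pools Actg2, which rose, with Lmod1 and Des, which fell. The 4 endothelial markers in the table summed to between 0.0785 and 2.08 CPM over the 6 libraries, at or near 0, with Cdh5 at 0 counts in 5 of them and at 1 count in a dexamethasone library, and Pecam1 at 21 counts and Emcn at 6 counts at most, both in dexamethasone + EPC-EVs replicate 2, and the 4 skeletal muscle markers to between 1.85 and 9.72 CPM. The 2 immune markers summed to between 1.62 and 4.86 CPM. The osteoblast markers summed to 15960 to 17480 CPM in the 4 libraries without vesicles and to 28970 and 22980 CPM in dexamethasone + EPC-EVs, where Col1a1, Col1a2 and Sparc were called higher and Spp1 lower than in dexamethasone.

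Over the 6 libraries, the genes with the pattern most like Acta2 by Pearson's r of log2 CPM, among 9219 genes whose mean reached 10 CPM, were Hsd17b4 (0.999), Hspa8 (0.999) and Anapc5 (0.998). For Tagln they were Nr2f1 (0.999), Mtmr11 (0.997) and Smarcb1 (0.996), and for Srf Mrps34 (0.9995), Cmtm3 (0.999) and Chd3 (0.997). With 2 libraries in each of 3 groups and 1 group standing apart, these values describe that separation, and the libraries also share their depth and composition.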

How the data were processed

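RNA of MC3T3-E1 Subclone 14 cells was taken with TRIzol and sequenced as 150-base pairs. The authors aligned the reads to GRCm38 with HISAT2, set for stranded reads, and counted them on genes with HTSeq 0.6.1 (with which strand setting is not given in the sources used here). The counts were deposited without normalization. The FPKM values deposited by the authors beside them equal the counts divided by gene length and library total. The deposited transcript table covers chromosome 1, where none of the 10 genes lies, and was not used. The sample labels give osteoblasts and 72 hours, where the series text gives fibroblasts and a shorter time; the sample labels were followed, also for the amount of vesicles, which some sentences of the study's text give as smaller. The libraries are described as separate samples, and p-values measure the spread between 2 libraries per group.

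The gene counts entered edgeR 4.0.16 under R 4.3.3 (TMM, filterByExpr, robust quasi-likelihood test) on the 4 libraries compared, with Benjamini-Hochberg adjustment over all genes tested. SE is the log2 fold change divided by the root of F. The 3 comparisons share libraries pairwise. On simulated counts the test recovered 29.6%, 61.7% and 15.5% of 2-fold changes, and 76.5%, 77.9% and 66.7% of 4-fold changes, for dexamethasone versus control (12472 genes), dexamethasone + EPC-EVs versus dexamethasone (13205) and versus control (13129), with 14, 10 and 4 false calls. Alternatives were median-of-ratios factors, library totals, no filter, DESeq2 1.42.0, a joint fit of the 6 libraries, a replicate block, omission of each library in turn, leaving out mitochondrially encoded genes, removing a loess trend (span 0.4) on GC content and length, limma 3.58.1 on log2(FPKM + 1), and the study's threshold. Applying the trend removal to the wider SRF list and the cofactor list was chosen after seeing the data. Replicates differed by more than sampling noise (chi-square per degree of freedom 13.8, 6.13 and 16.1 in control, dexamethasone and dexamethasone + EPC-EVs).

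The 10 genes and the lists were chosen with earlier results of these data known. All 10 genes are named. From each wider list, the called genes whose mean reached 10 CPM were named, at most the 3 largest rises and 3 largest falls per comparison, with the cofactors Mrtfa, Mrtfb and Myocd, Actb and Actg1 whatever their values. Des, Nr4a1, the Elk and Egr genes, the family paralogs and the single markers named were chosen after their values were seen. Coordinates are those of GENCODE vM21, in which 21646 genes of the table were found. Promoters are RefSeq's, and Tagln had no entry.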

Additional observations from a re-analysis of the deposited data

How the results depend on the processing

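Of 351 alternative values of the 27 log2 fold changes of the 10 genes (9 tested in 3 comparisons), 332 kept direction and side of the threshold, 6 lost a call, 8 gained one and 5 changed direction. A missing adjusted p, as for Tagln in DESeq2 between dexamethasone and control, was counted as not called.

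Between dexamethasone and control, leaving out 1 library gave 0 to 1 of the 10 genes higher and 0 to 1 lower, both 1 without control replicate 1. Over the same fits the wider SRF list gave 0 to 13 higher and 1 to 6 lower, from 0 each in the reported fit. The cofactor list gave 0 to 6 higher and 0 to 3 lower, also from 0 each. Tpm2 ranged from -0.057 to 0.355 and Actn1 from -0.36 to 0.094 in these fits. With the trend on GC content and length removed, Tpm2 had -0.21 and 1 gene of the wider list was lower. The calls over all genes went from 7 to 10 with median-of-ratios factors, 9 with library totals or all 6 libraries, 248 with no filter, 130 with DESeq2, 43 with the replicate block, 1 without mitochondrially encoded genes, 17 with the trend removed, 0 with limma on log2(FPKM + 1), and 9 to 2200 leaving out 1 library.

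Between dexamethasone + EPC-EVs and dexamethasone, 1 of the 10 genes, Tpm2, was lower with median-of-ratios factors, library totals, the replicate block or the trend removed, and 0 to 1 leaving out 1 library. Under the study's threshold 4 genes were higher instead of 7. Leaving out 1 library, 4 to 9 genes of the wider list were lower, and 4 to 7 of the cofactor list higher and 3 to 5 lower, and with the trend removed 3 of the cofactor list were higher. The calls over all genes went from 5397 to 3250 without dexamethasone replicate 2.

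Against control, the trend removal gave 1 of the 10 genes lower (Tpm2), 11 of the wider list lower against 6, and 1 of the cofactor list higher against 6. It turned Srf to -0.58. Leaving out 1 library, Tpm2 ranged from -0.40 to 0.032. The cause of these changes was not tested.

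The labels do not say whether the replicate numbers pair the libraries. The differences between replicates 1 and 2 correlated at 0.062, 0.007 and 0.011 between groups (13485 genes). These values show no large shared shift, and they cannot tell whether replicates were handled in pairs. The replicate block called Tpm2 lower against dexamethasone (-0.36, adjusted p = 0.0493 by edgeR) and changed no other call of the 10 genes. Where 1 library was left out, the lone library is taken to vary as the other group does. With 2 libraries per group, small changes such as those of Vcl, Tpm1 and Tpm2 are at the limit of what can be called, and at these depths Cnn1 was at or near the limit of detection in 5 of 6 libraries.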
